A study of Mus musculus with 7 samples.

Results

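Late recovery from pancreatitis was followed by comparing accessible chromatin at day 28 and day 7 after caerulein in epithelial cells purified from mouse pancreas. A region was called opened when it stood in the day 28 peak list and overlapped no day 7 peak by 1 bp or more, and closed when it stood in the day 7 list and overlapped no day 28 peak. On chromosomes 1 to 19 and X this gave 31387 opened and 47291 closed regions, together 78678 of the 275486 regions in both lists and of the 580456 regions in the 4 lists used. Each region was assigned by its peak summit to the closest gene span of a protein-coding gene, up to 50 kb away, and genes were described across the annotation. All mice of these groups were wild-type C57BL/6J. The day 1, day 7 and day 28 groups had been given caerulein, a peptide that overstimulates the cholecystokinin receptor of acinar cells and causes acute pancreatitis that resolves, and the untreated group had not. Untreated and day 1 lists served only to trace the earlier state of a region. Each group was represented by 1 library. No difference between days could therefore be checked against replicates, and all comparisons are between single libraries. The number of mice behind each library was not given in the sources used here, and 3 libraries of DCLK1-positive cells from Dclk1-DTR-ZsGreen mice were not analysed here.

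In the assay for transposase-accessible chromatin (ATAC-seq), the Tn5 transposase inserts sequencing adapters into DNA that is not wrapped in nucleosomes, so that peaks mark promoters, enhancers and heavily transcribed gene bodies. Acinar cells make up most of the exocrine pancreas and secrete digestive enzymes. Their enzyme genes are driven by the PTF1 complex together with NR5A2, GATA and other factors, and their large secretory output depends on the endoplasmic reticulum and its unfolded protein response. After caerulein, acinar cells lower this programme, take on duct-like and inflammatory features, and re-differentiate as the tissue heals.

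Promoters that opened at digestive enzyme genes are given here as sequence. They do not stand for the opened class as a whole, of which 6.37% lay within 1 kb of a gene end. RefSeq promoter windows on GRCm38.p6, from 250 bases before to 50 bases after a gene's start, were available for 17274 genes. The 4 sequences printed here are the 250 bases before the start at 4 of the 6 enzyme and granule genes whose window overlapped a peak in the untreated and day 28 lists and in neither of the day 1 and day 7 lists. They are given on the strand of the gene, 5′ to 3′, in lower case. Capitals mark matches on either strand to 4 motifs. These are the E-box portion of the PTF1 site, CACCTG, and the TC-box portion of the same site, TTTCCC, besides the GATA motif AGATAA, and for AP-1 the motif TGANTCA. A match describes letters and is not evidence of a factor. Gp2, which encodes the major membrane glycoprotein of zymogen granules, has its window at chr7:119459273-119459522 on the minus strand. Pnlip, pancreatic triglyceride lipase, lies at chr19:58670115-58670364 on the plus strand, and the related Pnliprp1 at chr19:58728637-58728886 on the same strand. Cpb1, carboxypeptidase B1, lies at chr3:20275734-20275983 on the minus strand.
Gp2: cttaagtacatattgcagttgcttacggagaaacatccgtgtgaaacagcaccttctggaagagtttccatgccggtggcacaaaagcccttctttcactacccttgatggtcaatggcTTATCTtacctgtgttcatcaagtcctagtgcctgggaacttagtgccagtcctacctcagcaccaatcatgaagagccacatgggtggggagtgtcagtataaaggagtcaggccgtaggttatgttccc
Pnlip: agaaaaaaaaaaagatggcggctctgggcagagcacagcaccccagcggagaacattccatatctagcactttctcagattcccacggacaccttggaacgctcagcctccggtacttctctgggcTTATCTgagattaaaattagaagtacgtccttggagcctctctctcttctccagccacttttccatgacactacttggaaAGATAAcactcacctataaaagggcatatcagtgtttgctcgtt
Pnliprp1: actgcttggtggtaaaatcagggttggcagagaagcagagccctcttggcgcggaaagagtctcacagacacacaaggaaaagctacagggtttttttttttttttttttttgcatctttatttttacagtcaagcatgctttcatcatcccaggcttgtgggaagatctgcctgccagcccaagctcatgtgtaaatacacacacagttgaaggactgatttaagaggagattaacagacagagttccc
Cpb1: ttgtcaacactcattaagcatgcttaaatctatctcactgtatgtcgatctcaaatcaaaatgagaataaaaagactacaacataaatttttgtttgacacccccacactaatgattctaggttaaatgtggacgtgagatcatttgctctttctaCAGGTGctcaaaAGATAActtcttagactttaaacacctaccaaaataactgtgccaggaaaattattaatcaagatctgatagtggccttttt
AGATAA or its reverse complement occurred in 3 of these 4 windows and in none of those of the other genes, Amy1 and Klk1, and so at 3 of the 6 genes. In Pnlip it began 44 and 124 bases before the start, in Gp2 131 bases and in Cpb1 82 bases before it, and Cpb1 also held CAGGTG, the reverse complement of CACCTG, 94 bases before the start. Pnliprp1 held none of the 4 motifs in this window.

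A further set of promoters with the same history belonged to the Reg genes, which encode secreted lectins known as acute-phase proteins of the pancreas. The windows of Reg3b (chr6:78370635-78370884, plus strand) and Reg3g (chr6:78468875-78469124, minus strand) are shown because both overlapped a peak at day 28 and in untreated epithelium and none at day 1 or day 7. Lhx8 (chr3:154330561-154330810, minus strand), a LIM homeobox gene, is shown as a promoter of the closed class, present in the untreated, day 1 and day 7 lists and absent at day 28. Capitals have the same meaning as before.
Reg3b: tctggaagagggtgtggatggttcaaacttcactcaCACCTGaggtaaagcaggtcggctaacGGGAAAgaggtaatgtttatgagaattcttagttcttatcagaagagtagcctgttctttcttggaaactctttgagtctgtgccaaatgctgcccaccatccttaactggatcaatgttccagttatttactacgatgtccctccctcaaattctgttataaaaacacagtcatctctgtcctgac
Reg3g: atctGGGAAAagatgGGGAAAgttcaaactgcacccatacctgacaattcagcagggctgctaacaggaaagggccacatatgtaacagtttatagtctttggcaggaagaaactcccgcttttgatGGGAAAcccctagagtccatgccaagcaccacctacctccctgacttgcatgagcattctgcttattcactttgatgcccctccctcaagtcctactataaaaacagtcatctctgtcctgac
Lhx8: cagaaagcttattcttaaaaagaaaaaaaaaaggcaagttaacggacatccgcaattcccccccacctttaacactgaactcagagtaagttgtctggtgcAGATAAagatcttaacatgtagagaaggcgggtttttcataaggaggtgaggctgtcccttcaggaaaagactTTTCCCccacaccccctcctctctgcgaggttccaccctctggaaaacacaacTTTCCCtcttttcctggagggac
Reg3b held CACCTG 214 bases and GGGAAA, the reverse complement of TTTCCC, 187 bases before the start, and Reg3g held GGGAAA 246, 235 and 123 bases before it. Lhx8 held AGATAA 149 bases before the start and TTTCCC 76 and 23 bases before it.

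The day 28 list held 130149 regions over 70.9 Mb and the day 7 list 145337 regions over 76.7 Mb, with median widths of 337 and 340 bp. Opened regions were 24.1% of the day 28 list (exact 95% interval 23.9 to 24.3) and closed regions 32.5% of the day 7 list (32.3 to 32.8). These intervals, here and throughout, cover counting error only, and neighbouring regions of a gene are not independent. Read totals were not given in these sources. Background coverage, which tracks depth and was recovered from fold enrichment and p-value fields, was 2.72 at day 7 and 2.52 at day 28, against 5.07 in the untreated library and 5.35 at day 1. Fold enrichments are the authors' own values for each peak and are used within a list, except for the scaling between lists that follows. Over regions common to the 4 lists, fold enrichment minus 1 had a median of 13.5 at day 7 and 9.79 at day 28. With both lists scaled by these medians and held to a common floor, 32365 regions opened and 44130 closed. The shares varied little by chromosome, from 21.8% (chromosome 9) to 26.9% (chromosome 6) opened and from 29.3% (chromosome 11) to 35.0% (chromosome 1) closed.

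Changed regions were weaker and narrower than shared regions of the same list. Opened regions had a median width of 200 bp and a median fold enrichment of 4.26, against 414 bp and 8.23 for day 28 regions that overlapped a day 7 peak. Closed regions had medians of 211 bp and 4.84, against 456 bp and 9.67 for shared day 7 regions. Among day 28 regions with a fold enrichment under 4, 49.7% were opened, and among those of 20 and over 0.264%. The corresponding shares of day 7 regions that closed were 64.7% and 0.350%. At the edge of the rule, 1656 opened regions lay within 50 bp of a day 7 peak without touching it and 1307 shared day 28 regions overlapped by under 50 bp, both with a median fold enrichment of 3.97. For day 7 regions these sets numbered 1769 and 1347, both with a median of 4.30. Of the closed regions, 24.5% lay over 10 kb from any day 28 peak, and of the opened regions 11.2% lay that far from any day 7 peak.

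Opened and closed regions differed in their earlier state. Of the opened regions, 53.9% (53.3 to 54.4) overlapped an untreated peak and 18.8% a day 1 peak, whereas of day 28 regions shared with day 7, 83.4% and 84.8% did. The most frequent history was a peak in the untreated list and none at day 1 or day 7, in 14225 opened regions (45.3%). A further 11252 (35.8%) had a peak in no earlier list, 3229 (10.3%) had 1 at day 1 only and 2681 (8.54%) in both. Of the closed regions, 73.7% overlapped a day 1 peak and 19.6% an untreated peak. Here the most frequent history was a peak at day 1 and none in the untreated list, in 27974 regions (59.2%), and 10048 (21.2%) stood in the day 7 list alone.

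**Figure D1:**
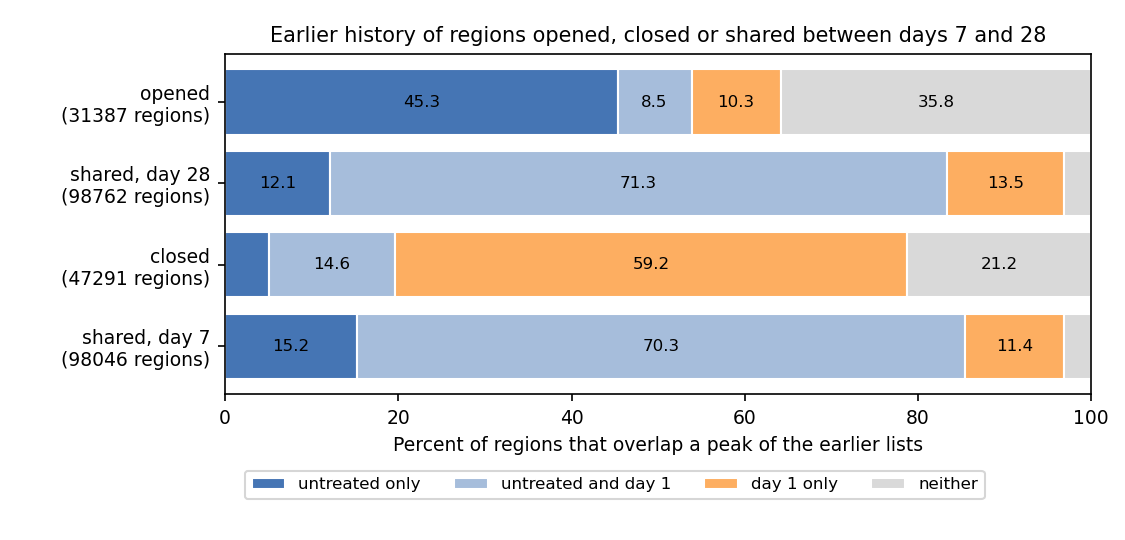
Earlier history of changed and shared regions. Each bar divides 1 class of regions, in percent, by overlap with the untreated and day 1 peak lists. Opened regions were mostly in the untreated list only (45.3%) or in neither list (35.8%), and closed regions mostly in the day 1 list only (59.2%).

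Part of this contrast followed peak strength. Below a fold enrichment of 4, opened regions overlapped an untreated peak in 36.1% and shared day 28 regions in 47.7%, and from 6 to 10 in 88.2% and 91.5%. Among the 1083 opened regions with a fold enrichment of 10 or more, 99.4% overlapped an untreated peak, much as the 99.8% of equally strong shared day 28 regions, but 7.57% overlapped a day 1 peak, against 88.9%. Among the 2099 closed regions of that strength, 98.8% overlapped a day 1 peak and 38.3% an untreated peak, against 98.1% and 96.1% of strong shared day 7 regions. The untreated and day 1 libraries were the deeper of the 4, but enrichment was weakest in the untreated one. Over regions common to the 4 lists, the median fold enrichment minus 1 was 6.25 in the untreated list and 14.0 at day 1. At days 7 and 28 it was 13.5 and 9.79. The part of this weaker enrichment in a region's absence from the untreated list, or in day 28 counts above untreated counts, was not tested. Seen from the untreated list, 17205 of the 44918 untreated regions that had no day 7 peak overlapped a day 28 peak (38.3%). Of the 52272 day 7 regions with no untreated peak, 38022 had no day 28 peak (72.7%), against 9269 of 93065 (9.96%) of the day 7 regions that overlapped an untreated peak.

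**Figure D2:**
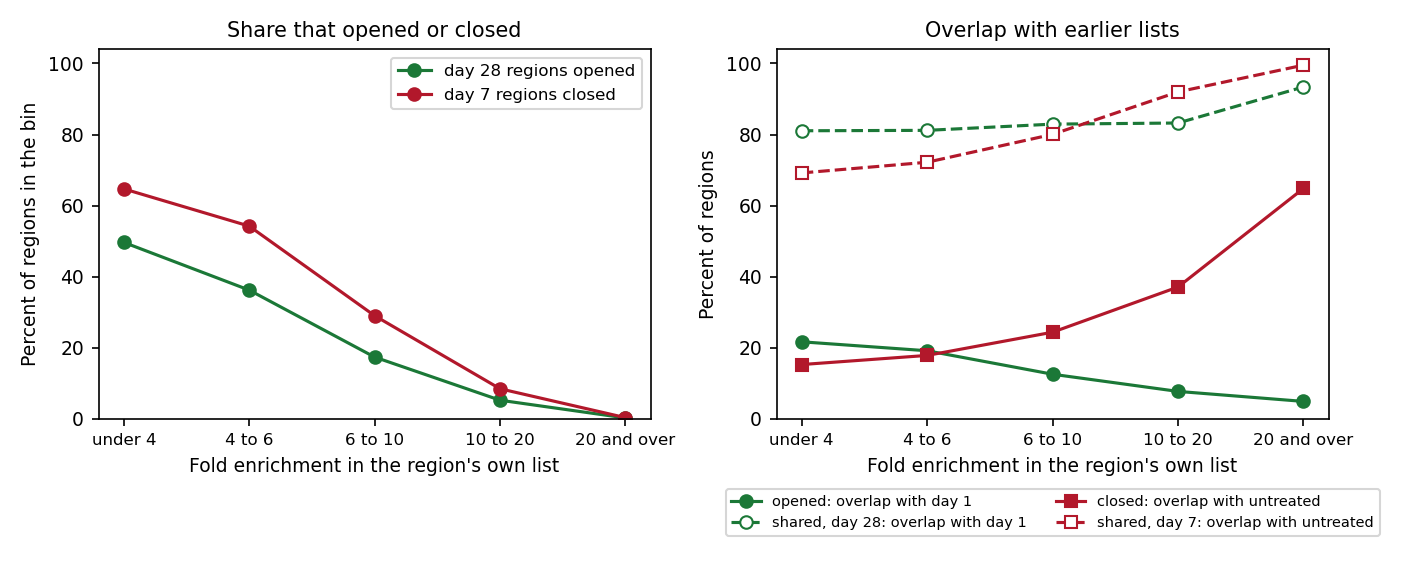
Changed regions by fold enrichment in their own list. The left panel gives the percent of regions in each bin of fold enrichment that opened (day 28 list) or closed (day 7 list), and the right panel the percent overlapping a day 1 or untreated peak. The opened share was 49.7% under a fold of 4 and 0.264% at 20 and over, and the overlap of opened regions with day 1 was 21.7% in the lowest bin and 4.92% in the highest.

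Linked to genes, 24.2% of day 28 regions were opened and 30.8% of day 7 regions closed, and these shares are the background for every gene list that follows. Of regions within 1 kb of an annotated gene end, 10.7% opened and 14.9% closed, and such a region opened at 10.7% of genes with a day 28 region and closed at 14.5% of genes with a day 7 region. Of the 16228 genes with a day 28 region, 53.9% had an opened region, and of the 16637 genes with a day 7 region, 64.8% had a closed region. Both kinds occurred at 6119 genes, opened regions alone at 2634 and closed regions alone at 4659. In cells pooled for a library, fewer cells of a type and less accessibility per cell cannot be told apart.

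Digestive enzyme and granule genes opened widely between day 7 and day 28. The 31 matched genes of this list held 67 regions at day 1, 189 at day 7 and 355 at day 28, against 339 in the untreated library. Opened regions made up 243 of the 355 (68.5%, 63.3 to 73.3) against the background of 24.2%, and 29 of the 30 genes with a day 28 region had at least 1. Only 7 of the 189 day 7 regions closed (3.70%), against 30.8%. Of the 243 opened regions, 170 overlapped an untreated peak, 5 a day 1 peak and 71 neither. Over all opened regions these shares were 53.9%, 18.8% and 35.8%. Of 226 untreated regions of these genes that had no day 7 peak, 193 overlapped a day 28 peak (85.4%), against 38.3% over all untreated regions. A region near a gene end opened at 21 of the 30 genes with a day 28 region, against 10.7% of all such genes. It closed at 0 of the 28 with a day 7 region, against 14.5%. The list marks acinar cells, a part of the labelled epithelium. All its matched genes but Prss3 had a day 28 region, against 16228 of all 21631 genes. All 22 fibroblast and 18 endothelial genes had such a region too, so its presence alone does not mark a cell type. Ctrl, a chymotrypsin-like protease gene, was the member with a region and none opened.

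Lipase and granule membrane genes carried many of the opened regions. Pnlip was linked to 30 regions in the untreated list, then to 7, 13 and 42 at days 1, 7 and 28, and 32 of the 42 were opened. Pnliprp1 was linked to 23, 2, 5 and 23 regions in the same order, and 19 of the 23 were opened. Day 28 thus matched the untreated count at Pnliprp1 and exceeded it at Pnlip, where 15 opened regions were in neither earlier list. Gp2 was linked to 21, 0, 2 and 25 regions, and 24 of the 25 were opened. The carboxypeptidase gene Cpb1 had 14 of 17 day 28 regions opened. Cela3b, a pancreatic elastase gene, had 12 of 16.

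Amylase genes had almost no day 1 or day 7 regions. Amy1 was linked to 12 regions in the untreated list, then to 0, 2 and 13 at days 1, 7 and 28, of which 11 were opened, and Amy2b to 15, 0, 1 and 11, of which 10 were opened. Cuzd1, which encodes a zymogen granule membrane protein, had 11 of 13 opened, and all 11 overlapped an untreated peak. Some members followed another course. Cela1, another elastase gene, was linked to 7, 7, 18 and 4 regions with 1 opened and 0 closed, and Cela2a to 17, 2, 21 and 12. At both, the day 7 count exceeded the day 28 count although every day 7 region overlapped a day 28 peak. Amylase, trypsin and kallikrein genes have near-identical copies, and how reads were assigned among copies was not stated in those sources, so their counts are uncertain. The promoter windows of Amy1, Pnlip, Pnliprp1, Cpb1, Gp2 and the tissue kallikrein gene Klk1 overlapped a peak at day 28 and none at day 7. Over all genes this was so for 1.33% of promoters with a day 28 peak (146 of 11004), while 3.6% of those with a day 7 peak (405 of 11263) had none at day 28.

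**Figure D3:**
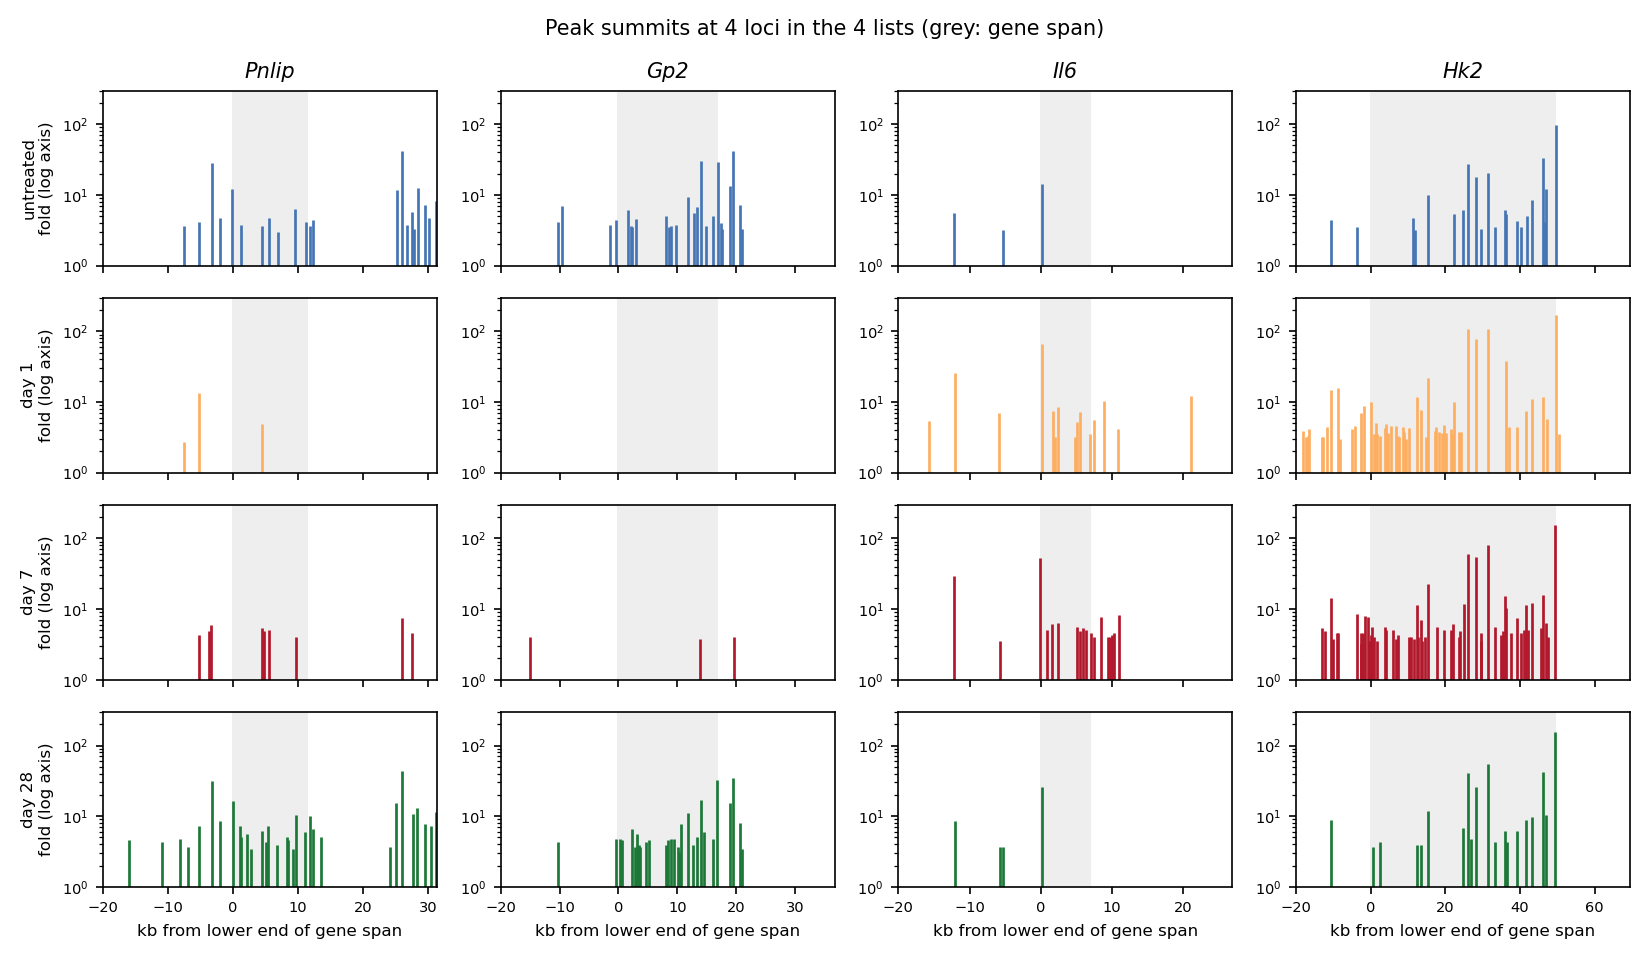
Peak summits at Pnlip, Gp2, Il6 and Hk2 in each list, within 20 kb of the gene. Each line is 1 peak at its distance in kb from the lower end of the gene span (grey), with the authors' fold enrichment, to be read within a list, on a log axis. Around Gp2 there were 25, 0, 3 and 29 regions in the untreated, day 1, day 7 and day 28 lists, and around Il6 there were 3, 15, 18 and 4.

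Genes of acinar transcription factors had more opened than closed regions. Their 12 genes held 361, 249, 290 and 398 regions in the 4 lists in order of time, and 181 of the 398 were opened (45.5%, 40.5 to 50.5), while 44 of 290 closed (15.2%). Mecom, which encodes a zinc finger factor, was linked to 64, 40, 35 and 67 regions with 40 opened. Gata4 was linked to 44, 13, 28 and 55 with 34 opened and 0 closed, and Nr5a2, the nuclear receptor that acts with PTF1, to 47, 16, 28 and 53 with 30 opened. At these genes the day 28 count lay above the untreated count. Ptf1a, the pancreas-specific subunit of PTF1, was linked to 17, 3, 9 and 18 regions, with 10 opened and 0 closed. Foxp1, a forkhead gene, changed in both directions, with 45 of 120 regions opened and 23 of 102 closed. A region near a gene end opened at Gata4, Nr0b2, Nr5a2 and Xbp1 and closed at none of the 12 genes. Over all genes with a region these shares were 10.7% and 14.5%.

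Genes of the endoplasmic reticulum, its protein folding and the unfolded protein response had 187 of 398 regions opened (47.0%, 42.0 to 52.0) and 45 of 289 closed (15.6%). Sel1l, a component of the machinery that removes misfolded proteins, was linked to 47, 14, 22 and 51 regions in time order, and 37 were opened. Eif2ak3, the stress sensor kinase PERK, was linked to 35, 15, 20 and 51, with 34 opened, of which 19 were in neither earlier list. Atf6, another stress sensor, had 15 of 31 opened and Edem1, which also acts on misfolded glycoproteins, 12 of 16. Creb3l2, a transcription factor of the secretory pathway, differed, with 1 of 36 opened and 12 of 45 closed. Genes of amino acid supply and transfer RNA charging had 112 of 258 opened (43.4%, 37.3 to 49.7) and 38 of 218 closed (17.4%). The arginine and lysine transporter gene Slc7a1 had 17 of 31 opened, the glycine transporter gene Slc6a9 14 of 25, Asns, asparagine synthetase, 11 of 16, and the neutral amino acid transporter gene Slc7a8 11 of 24.

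Genes of granule exocytosis and secretagogue receptors were less one-sided. Of their regions 96 of 279 opened (34.4%, 28.8 to 40.3) and 87 of 274 closed (31.8%), the latter near the background. With a −log10 q of at least 5 asked of the peak, closed regions (64) outnumbered opened ones (55), as over all linked regions (27461 and 17078). The list's shares were then 27.2% closed and 26.2% opened, against 25.4% and 18.1% of all linked regions. Cckar, the receptor for cholecystokinin and caerulein, was linked to 17, 7, 10 and 15 regions with 8 opened and 1 closed. Rab27b, a GTPase of granule docking, had 7 of 14 opened and 1 of 11 closed. Itpr2, the main calcium release channel gene of acinar cells, had 16 of 47 opened and 18 of 46 closed, and Gnaq, the G protein subunit that couples these receptors, 10 of 32 and 11 of 31.

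**Figure D4:**
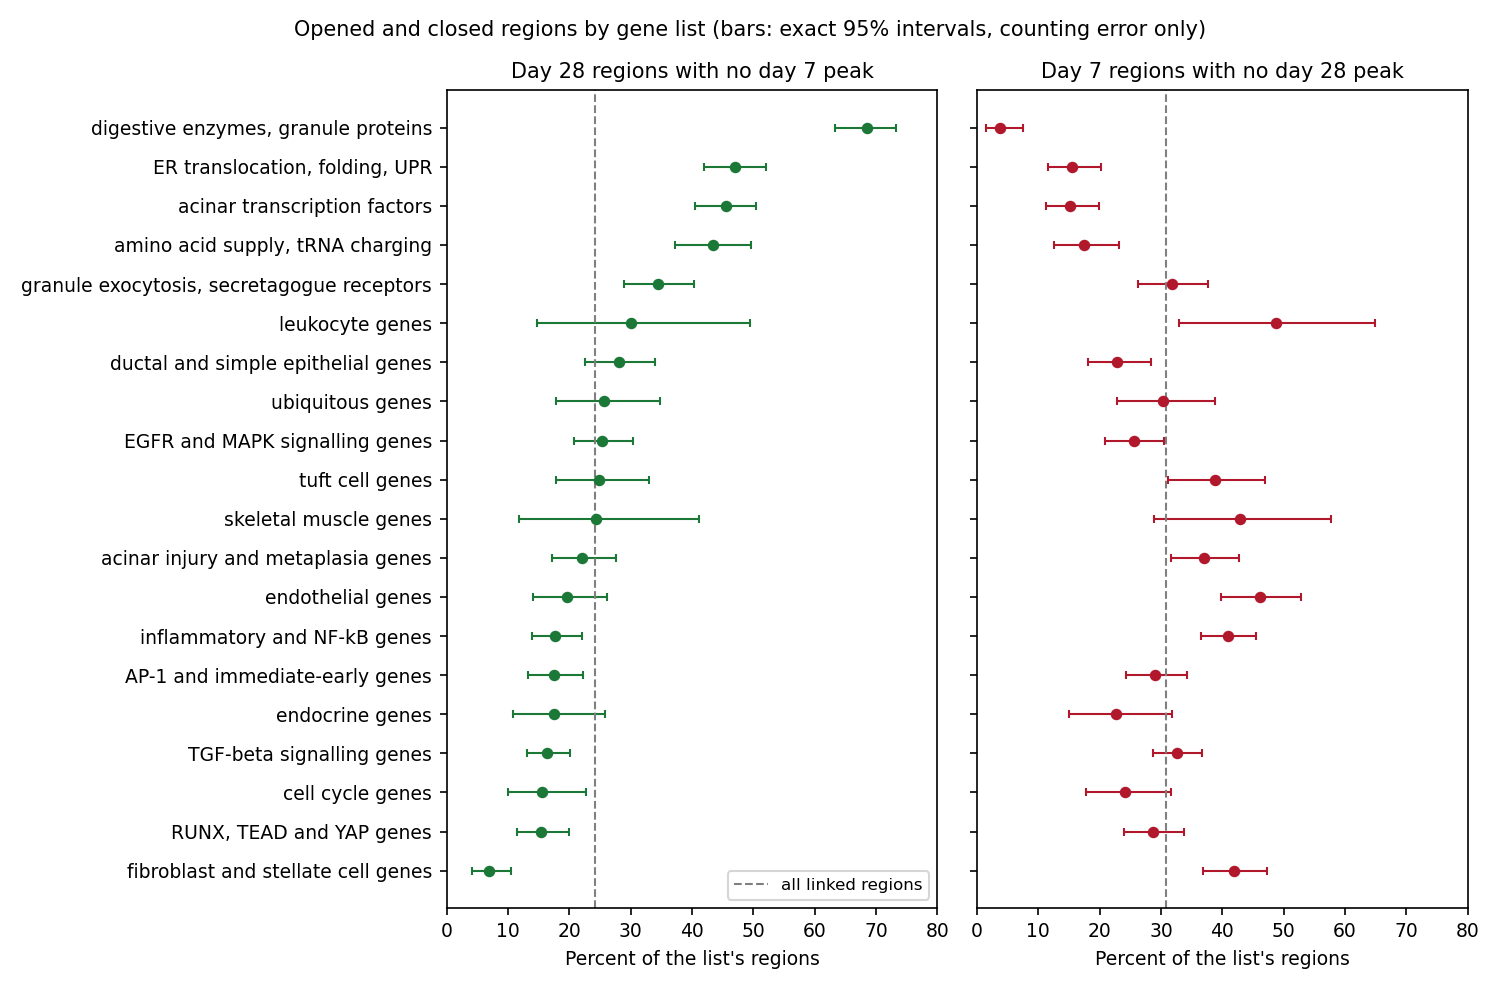
Share of regions opened or closed for each gene list. Points give the percent of the list's day 28 regions that opened (left) and of its day 7 regions that closed (right), bars the exact 95% interval for counting error, and dashed lines the value over all linked regions. The digestive enzyme list stood highest for opened regions (68.5%) and lowest for closed regions (3.70%), and the fibroblast and stellate cell list stood lowest for opened regions (6.86%).

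Ductal and simple epithelial genes had 71 of 253 regions opened (28.1%, 22.6 to 34.0) and 63 of 275 closed (22.9%, 18.1 to 28.3). Cdh1, epithelial cadherin, accounted for 17 of the opened regions and the bicarbonate transporter gene Slc4a4 for 21 of the closed ones. The simple epithelial keratin gene Krt18 had 7 of 18 opened and 3 of 19 closed, and Epcam 5 of 16 and 1 of 12. Cdh1, Krt18 and Epcam held regions in all 4 lists, and Krt19 was linked to 20, 7, 10 and 14 in time order.

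Genes of acinar injury and metaplasia closed more than they opened, with 114 of 308 day 7 regions closed (37.0%, 31.6 to 42.7) and 57 of 259 day 28 regions opened (22.0%). Cd44, a hyaluronan receptor gene induced in injured acinar cells, was linked to 17, 89, 40 and 20 regions in time order, and 21 of the 40 were closed. Anxa1, an annexin gene, was linked to 6, 19, 27 and 8 with 20 closed, and Tnc, the matrix protein tenascin C, to 10, 94, 23 and 12 with 14 closed. At these genes the day 28 count was within 3 regions of the untreated count. The Reg genes of the same list went the other way. Reg1 was linked to 9, 0, 1 and 9 regions with 8 opened, and Reg3b to 3, 0, 0 and 5 with all 5 opened. Reg2 had 1 of 1, Reg3a 3 of 4 and Reg3g 2 of 3 opened, and the promoter windows of Reg2, Reg3b and Reg3g were among those that opened. The Reg genes also have close copies, with the same limit on read assignment.

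Inflammatory and NF-kB genes closed widely. The 32 genes held 388, 542, 482 and 356 regions in time order. Of the 482, 197 closed (40.9%, 36.4 to 45.4) against the background of 30.8%, and 63 of the 356 opened (17.7%) against 24.2%. Of the closed regions 155 overlapped a day 1 peak (78.7%, against 73.7% of all closed regions). Day 7 regions of these genes with no untreated peak closed in 169 of 206 cases (82.0%, against 72.7% over all such regions). Those that overlapped an untreated peak closed in 28 of 276 (10.1%, against 9.96%). A region near a gene end closed at 12 of the 31 genes with a day 7 region, against 14.5% of all such genes, and opened at 0 of 30, against 10.7%. Il6, the interleukin 6 gene, was linked to 3, 15, 19 and 4 regions, and all 16 closed regions overlapped a day 1 peak. Tnfaip3, which encodes the NF-kB feedback inhibitor A20, was linked to 13, 29, 29 and 12 with 17 closed, and Il4ra, a type 2 cytokine receptor gene, to 28, 23, 31 and 21 with 18 closed. Nfkb1 had 21 of 44 regions closed and 11 of 36 opened. The chemokine gene Ccl2 was linked to 10, 20, 21 and 10, with 11 closed, 5 of them near a gene end, and the alarmin gene Il33 to 7, 29, 25 and 12, with 14 closed. Stat3 had 10 of 27 opened and 7 of 29 closed, and 8 of the opened regions were in neither earlier list.

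AP-1 and immediate-early genes closed at about the background share, 97 of 334 (29.0%, 24.2 to 34.2), while 53 of 304 opened (17.4%, 13.3 to 22.2) against a background of 24.2%. Fosl2, an AP-1 subunit gene, was linked to 23, 33, 42 and 26 regions in time order and had 23 closed, and the Krüppel-like factor genes Klf4 and Klf6 had 10 of 20 and 10 of 28. Fos and Jun, also AP-1 subunits, had more opened than closed regions, 7 and 3 for Fos and 8 and 6 for Jun. RUNX, TEAD and YAP genes gave 98 of 342 closed (28.7%, 23.9 to 33.8) and 47 of 305 opened (15.4%). Of these, Runx1 had 24 of 62 regions closed, Runx2 16 of 34 and Runx3 13 of 23, whereas the Hippo pathway factor gene Tead1 had 16 of 68 opened and 11 of 62 closed. Runx1 was linked to 33, 61, 62 and 43 regions in the 4 lists, so its day 28 count stood above the untreated count.

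EGFR and MAPK signalling genes had 84 of 332 opened (25.3%) and 85 of 333 closed (25.5%, 20.9 to 30.6). The receptor gene Egfr had 20 of 55 opened and 14 of 51 closed, its ligand gene Tgfa 14 of 30 and 2 of 21, and the phosphatase gene Dusp5 3 of 20 and 14 of 30. TGF-beta signalling genes had 174 of 534 closed (32.6%, 28.6 to 36.7) and 75 of 459 opened (16.3%). The receptor genes Tgfbr3 and Tgfbr2 had 25 of 72 and 19 of 32 closed, and the latent TGF-beta binding protein gene Ltbp1 was linked to 34, 91, 45 and 30 regions with 18 closed. Cell cycle genes had 38 of 157 closed (24.2%) and 22 of 141 opened (15.6%), with the cyclin D3 gene Ccnd3 at 10 of 29 closed and the proliferation marker gene Mki67 at 5 of 9 opened.

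Fibroblast and endothelial marker genes had more closed than opened regions, the reverse of the digestive enzyme genes. Fibroblast and stellate cell genes were linked to 246, 487, 360 and 277 regions in time order, with 151 of 360 closed (41.9%, 36.8 to 47.2) and 19 of 277 opened (6.86%, 4.18 to 10.5). Of the closed regions 136 overlapped a day 1 peak (90.1%, against 73.7% of all closed regions). Of the 151, 120 had a day 1 and no untreated peak, a history of 59.2% of all closed regions. Split by untreated overlap, the closed shares were near those over all day 7 regions. Without an untreated peak 134 of 180 closed (74.4%, against 72.7%), and with an untreated peak 17 of 180 (9.44%, against 9.96%). Col5a1, a fibrillar collagen gene, was linked to 35, 93, 53 and 36 with 29 closed. The mesenchymal transcription factor genes Twist2 and Prrx1 had 13 of 28 and 11 of 20 closed, and Pdgfrb, a receptor of stellate cells and pericytes, 12 of 25. Every one of the 22 genes had a day 28 region. A gene-end region closed at 10 of them, against 14.5% over all genes with a day 7 region. Such a region opened at 2, near the 10.7% over all genes with a day 28 region.

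Endothelial genes were linked to 255, 246, 238 and 179 regions, with 110 of 238 closed (46.2%, 39.8 to 52.8) and 35 of 179 opened (19.6%). Of the closed regions 71 overlapped a day 1 peak (64.5%, against 73.7% of all closed regions). An untreated peak was overlapped by 34 of the 110, against 19.6% of all closed regions. Day 7 regions of these genes that overlapped an untreated peak closed in 34 of 147 cases (23.1%, against 9.96% over all such regions). Those with no untreated peak closed in 76 of 91 (83.5%, against 72.7%). Cdh5, vascular endothelial cadherin, was linked to 11, 9, 10 and 1, and all 10 day 7 regions closed. Erg, an ETS factor gene of endothelium, was linked to 28, 21, 31 and 19 with 21 closed and 9 opened, Flt1, a VEGF receptor gene, to 17, 13, 18 and 9 with 11 closed, and Vwf, von Willebrand factor, to 19, 16, 20 and 13 with 10 closed. The defining marker Pecam1 had 23 regions at day 7, of which 8 closed, and 16 at day 28, of which 1 was opened.

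Leukocyte genes held few regions, 35, 50, 41 and 30 in time order, with 20 of 41 closed (48.8%, 32.9 to 64.9) and 9 of 30 opened (30%, 14.7 to 49.4). Csf1r, the macrophage growth factor receptor gene, was linked to 2, 11, 6 and 2, and the pan-leukocyte gene Ptprc to 4, 10, 4 and 2. At day 28, 8 of the 22 leukocyte genes had no region, among them the defining markers Ms4a1, Adgre1, Lyz2 and S100a8, and at day 7 there were 4 such genes. Over all 21631 genes of the annotation, 16228 had a day 28 region and 16637 a day 7 region, so genes without a region were common outside this list too. Without Itgam, 5 of 26 regions opened (19.2%). Tuft cell genes had 61 of 157 closed (38.9%, 31.2 to 46.9), of which 24 lay at Dclk1, the marker on which the sorted libraries were based, and 34 of 137 opened (24.8%). Dclk1 was linked to 19, 63, 42 and 26 regions. Endocrine genes had 24 of 106 closed (22.6%) and 19 of 109 opened (17.4%), with the pancreatic factor gene Pdx1 at 7 of 15 opened. Skeletal muscle genes had 21 of 49 closed (42.9%, 28.8 to 57.8) and 9 of 37 opened (24.3%, 11.8 to 41.2). Their closed share thus also lay above the background of 30.8%, which its interval includes. Ubiquitous genes stood near the background, with 29 of 113 opened (25.7%) and 41 of 135 closed (30.4%), but 28 of the closed regions lay at Ywhaz and without it the share was 15.5%. The fall in stromal, endothelial and leukocyte region totals from day 7 to day 28 ran alongside the acinar openings, and the part of cell mix in either was not tested.

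Across the annotation, Snd1, which encodes a nuclease-domain protein of RNA processing, had the most opened regions, 94 of its 158 day 28 regions, followed by the chromatin remodelling subunit gene Arid1b (70 of 144), the Rap GTPase regulator gene Rap1gap2 (52 of 93), Gse1 (50 of 147), Arhgap26 (47 of 141) and Adk, adenosine kinase (45 of 69). Foxp1, Aopep, Prdm16, Dmbt1, Mecom, Rbm47, Mbnl2, Foxn3 and Galnt2 completed the 15, with 37 to 45 opened regions each, and Sel1l equalled Galnt2 at 37. Snd1 was linked to 87, 76, 81 and 158 regions in time order, and 61 of its opened regions were in neither earlier list. Rap1gap2 was linked to 95, 37, 57 and 93. Dmbt1, a secreted scavenger receptor gene, was linked to 53, 3, 20 and 50 regions, with 40 opened and 0 closed.

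The genes with most closed regions were led by Slit3, a guidance ligand gene, with 52 of 107 day 7 regions, and the RNA-binding protein gene Rbms3 with 50 of 102. Next came Hk2, which encodes a hexokinase of glycolysis, with 45 of 64, Lrmda with 43 of 89, and Nfatc1, a calcium-responsive transcription factor gene, with 41 of 82. Fndc3b, Gfpt2, Chst11, Creb5, Ebf1, Zbtb7c, Jak1, Rora, Pdzd2 and Zbtb20 had 35 to 40 each. Hk2, at 49.4 kb, and Gfpt2, at 44.5 kb, were the shortest of these 15 genes. Hk2 was linked to 23, 63, 64 and 21 regions in time order, with 6 of the closed regions near a gene end. Gfpt2, an enzyme gene of hexosamine synthesis, was linked to 14, 49, 62 and 32, with 40 closed and 2 opened. At Hk2 the day 28 count was close to the untreated count, and at Gfpt2 it was above it. Fndc3b belonged to both directions, with 40 of 131 closed and 34 of 123 opened.

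**Figure D5:**
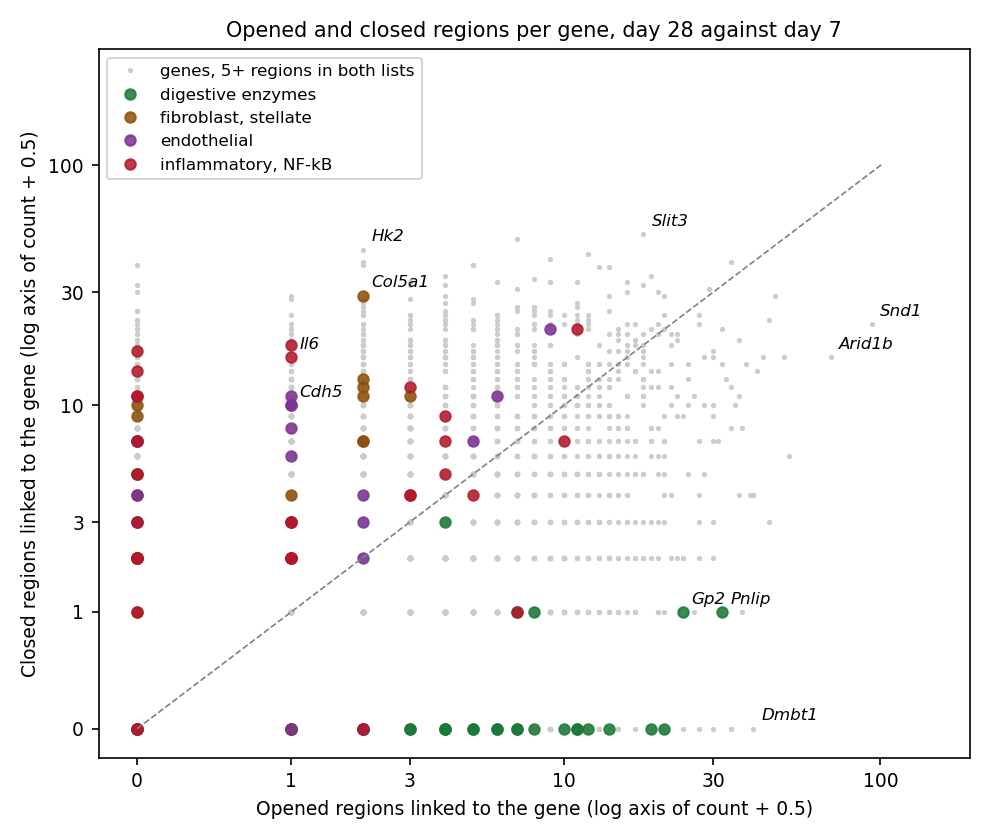
Opened against closed regions for each gene. Each point is 1 gene, at its number of opened (horizontal) and closed (vertical) regions on log axes of the count plus 0.5. Grey points are genes with at least 5 regions in both lists, coloured points the members of 4 gene lists, and the dashed line marks equal counts. Digestive enzyme genes lie mostly along the lower edge, with Pnlip at 32 opened and 1 closed, while Col5a1 (2 opened, 29 closed) and Hk2 (2 and 45) lie near the left edge and Snd1 (94 and 22) at the far right.

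Ranked by share among genes with at least 10 regions, 6 of the 10 genes at the opened end were members of the digestive enzyme list. Gp2 (96% of 25 regions), Amy2b (10 of 11), Glp1r (9 of 10), Amy1 and Cuzd1 (11 of 13 each), Sord (10 of 12), Pnliprp1 (19 of 23), Cpb1 (14 of 17), Dmbt1 (40 of 50) and Dnah8 (12 of 15) had the highest shares. Glp1r, the receptor for glucagon-like peptide 1, was linked to 11, 4, 3 and 10 regions, and all 9 opened regions overlapped an untreated peak. Sord, sorbitol dehydrogenase, was linked to 12, 3, 3 and 12. The closed end held Cdh5 (10 of 10), the T-box factor gene Tbx5 (12 of 13), Lhx8 (11 of 12), the guidance ligand gene Slit1 (20 of 22), Aoah and Pde12 (9 of 10 each), the glutamate receptor gene Grid1 (16 of 18), the laminin gene Lama3 (12 of 14), Sf3b1 and Snap47 (11 of 13 each). Tbx5 was linked to 2, 10, 13 and 1 regions and Slit1 to 13, 26, 22 and 5, so both had fewer regions in the untreated list than at day 1 or day 7. Sf3b1, a splicing factor gene, also had 4 of 6 day 28 regions opened. Over all genes with at least 10 regions in the list concerned, the median share opened was 23.5% (3468 genes) and the median share closed 30.8% (3841 genes).

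Gene families were grouped by the letters before the number in the symbol, and those with at least 8 genes and 30 regions were ranked. The kallikrein family (Klk) had the highest share opened among 272 families, 29 of 51 regions (56.9%) at 13 of 20 genes, with 0 of 26 closed. Klk1b5, a kallikrein 1-related peptidase gene, was linked to 8, 0, 2 and 8 regions with 6 opened. Next stood the Rap, Tmed, Arid and Spag groups at 44.1%, 42.6%, 42.1% and 42%. Tmed genes encode cargo receptors between endoplasmic reticulum and Golgi, and Tmed6 had 5 of 6 regions opened. Most of the Rap count lay at Rap1gap2 (52 of 82) and most of the Arid count at Arid1b (70 of 112). Among 285 families, Hoxd had the highest share closed, with 22 of 32 regions (68.8%) and 0 of 10 opened. The LIM homeobox family Lhx followed with 41 of 72 (56.9%), the T-box family Tbx with 52 of 98 (53.1%), Rtl with 26 of 49 (53.1%) at 4 genes and the chemokine family Cxcl with 46 of 87 (52.9%). Hoxa and Hoxb had 34 of 72 and 35 of 82 closed, and their opened shares of 4% and 1.43% were the lowest among the 272 families ranked for opening. Within these families, Hoxd3 had 10 of 13 regions closed, Hoxa3 18 of 34, Hoxb3 18 of 39 and Cxcl13 11 of 22.

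The opened region with the highest fold enrichment in the day 28 list lay inside Tbccd1, at chr16:22842417-22843310 on GRCm38, with 49.4 fold. The next lay inside Stard3 (43.4 fold, chr11:98377162-98378653) and Shisal1 (42.9 fold, chr15:84429657-84431087), then 6061 bp from Sh3tc2 (38.6 fold). The gene-end region of Gp2, at chr7:119458713-119460437 with its summit 71 bp from the gene, had 32.1 fold and contains the promoter printed earlier. Regions at Htra1, Cytip, Anxa4, Wsb1 and Ptgds completed the 10. All 10 overlapped an untreated peak, as did 100% of shared day 28 regions with a fold enrichment of 20 and over, and of the 10 only that in Shisal1 overlapped a day 1 peak, against 93.4%. The strongest closed region lay 15236 bp from Ccn4, a matricellular protein gene, at chr15:66875598-66876432, with 37.6 fold in the day 7 list. Regions inside Rbm20 and inside the malic enzyme gene Me1 followed at 32.0 fold each (chr19:53731687-53732510 and chr9:86624622-86625402), then regions at Pabpc1, Trcg1, Itgb3, Gm46353, Esrra, Esrrg and Lcp2. All 10 overlapped a day 1 peak, as did 99.9% of shared day 7 regions of that strength, and 7 overlapped an untreated peak, against 99.5%, the exceptions being those at Me1, Itgb3 and Lcp2. The gene table gives spans without exons, so exons and introns could not be separated.

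Promoter windows were searched on both strands, in the 250 bases before the start, for 9 motifs, counting a window once for each motif whether or not matches of different motifs overlapped. AGATAA occurred in 19.4% (14.5 to 25.1) of the 227 windows that opened, 8.29% of the 531 that closed, 5.20% of the 13010 with a peak at both times, 15.1% of the 7277 with a peak at neither and 8.84% of all 21045. CACCTG occurred in 25.1% (19.6 to 31.3) of opened windows, 17.7% of closed, 16.1% of those held at both and 17.0% of all. TTTCCC gave 22.0%, 24.1%, 23.1% and 22.4% in the same order, so its share in opened windows was near that of all windows. The AP-1 motif TGANTCA occurred in 7.49% of opened, 10.2% (7.73 to 13.1) of closed, 4.34% of held and 9.12% of peakless windows. The RUNX motif TGTGGT and the TEAD motif GGAATG were in 11.5% and 15.4% of opened and 14.9% and 14.9% of closed windows, against 12.2% and 11.6% of all. CCGGAAG, an ETS motif, was in 13.3% of held but 0.441% of opened and 2.64% of closed windows. TCAAGGTCA (NR5A2) was in 1 opened and 2 closed windows, and the HNF1 palindrome in 1 of all. An absent match says only that these letters are not in the window. Median GC content was 51.2% in opened, 55.2% in closed, 60.8% in held and 46% in peakless windows, and the part of base composition in the motif shares was not tested.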

How the data were processed

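ATAC-seq peak lists of 4 libraries of purified pancreatic epithelial cells were used, 1 library in each of the untreated, day 1, day 7 and day 28 groups. Peaks were called by the authors with MACS2 2.1.0.20150731 on GRCm38/mm10, and cutadapt, Bowtie2 2.2.6, SAMtools and deepTools are named besides, per the submitters' processing notes, which as read here give no options. The deposited lists hold for each peak the fold enrichment over background, the −log10 p and −log10 q, and a score that equalled 10 times the −log10 q in 100% of peaks. The background coverage was recovered from these fields as a constant for each library. Pileups then came out whole in 100% of peaks, within 0.05 plus an allowance that grew with the pileup. At the strongest peaks this allowance was too wide to test wholeness. The fold enrichment is thus over a library-wide background and not a local one.

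Regions on chromosomes 1 to 19 and X were matched by an overlap of at least 1 bp and linked to RefSeq gene spans (GRCm38.p6) within 50 kb of the summit, with Python 3.11.15, numpy 2.4.6 and pandas 2.3.3. Overlap counts were checked with bedtools 2.31.1. The matching and linking were tested against a direct search on regions sampled from the day 7 list, and the matching also on planted regions. Exact 95% Clopper-Pearson intervals (SciPy 1.17.1) cover counting error only. With 1 library a group there was no test. Of 456 genes in 20 lists, 455 matched a gene span. The members and lists were chosen with earlier results of these data known. Named genes were, by rule, the 15 with most opened or closed regions, the 10 with the highest shares among genes with at least 10 regions, the 5 leading families, the 10 strongest regions in each direction, and up to 4 leading genes in each direction and those with a changed gene end in each list. Other members named beside them were chosen after their values were seen. Alternatives changed the significance asked of a peak (−log10 q of at least 5), the overlap that counts as shared, the linking distance and the scaling. Leaving out the member with most changed regions was added after the data were seen. Some items that the rule names are not reported here.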

Additional observations from a re-analysis of the deposited data

How the results depend on the processing

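The region counts, both digestive shares and the closed shares of fibroblast, endothelial, inflammatory and AP-1 genes were recomputed under every alternative that applied. So were the untreated overlaps of opened and closed regions and the day 1 overlap of closed regions. All other list shares, the opened shares of those genes among them, were recomputed under the common floor and −log10 q of at least 5 where present. Gene rankings, families, promoters and motifs were recomputed under none. Both digestive shares and the closed fibroblast, endothelial and inflammatory shares stayed on their side of the share over all linked regions. AP-1 genes, below it as reported, closed in 31.6% against 29.7% within 10 kb. With −log10 q of at least 5 where present, ubiquitous genes opened in 15.3% against 18.1%. Exocytosis genes then had 55 opened and 64 closed regions, against 17078 and 27461 over all linked regions. With the common floor EGFR and MAPK genes had 87 opened and 78 closed, against 29065 and 36460. Opened regions numbered 19048 where a −log10 q of at least 5 was asked of the peak and none of its absence, and 20090 where a day 7 peak within 500 bp counted as shared, while the count of closed regions stayed within 1.5 times. The share of opened regions that overlapped an untreated peak was 66.9% with −log10 q of at least 5 in both lists, 65.3% with it only where present, 51.2% with 50% of the region covered, 47.8% with the summit within a peak and 64.3% with a peak within 500 bp. In the same order closed regions overlapped an untreated peak in 25.8%, 21.2%, 16.8%, 17.7% and 23.0%, and a day 1 peak in 79.9%, 79.2%, 72.0%, 70.0% and 78.1%, and in 74.8% with the common floor. Digestive enzyme regions opened in 82.8% with 50% covered, 54.1% with 500 bp and 75.4% inside gene spans, and closed in 1.25% within 10 kb and 0% (0 of 83) inside gene spans, and in 4 of 182 cases without Try10. With −log10 q of at least 5 where present, 50% covered and 500 bp in turn, closed shares were 34.6%, 55.6% and 30.3% for fibroblast genes, 38.1%, 55.0% and 34.0% for endothelial genes and 32.8%, 48.3% and 28.8% for inflammatory genes, against 25.4%, 38.1% and 21.8% of all linked regions. AP-1 genes closed in 37.4% with 50% covered and 16.5% with 500 bp. The cause of these moves was not tested. No paired analysis was possible because each time point has 1 library. Depth limits the weakest peaks, where most changed regions lay: the lowest accepted pileup was 10 reads at day 7 and 9 at day 28, against 14 in the deeper untreated and day 1 libraries, so a region missing from a list may lie just under its limit.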

Other observations

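Some changed regions stood in unbroken runs, with no shared region or region of the other kind between them and gaps of at most 50 kb. These runs were looked for after the data were seen. The longest opened run held 24 regions over 63.7 kb of Dmbt1, a scavenger receptor gene of secretory epithelia, and the next 21 regions over 23.9 kb of Gp2, 18 over 32.1 kb of Tmem131l and 13 over 12.7 kb of Pnliprp1. The longest closed run held 18 regions over 129 kb around Col5a1 and Fcnb. Closed runs of 17 regions over 11.8 kb at Ywhaz, 15 over 10.4 kb at Il6 and 13 over 10.7 kb at Hk2 were compact, while those of 14 regions at Pax1 (105 kb), a paired-box gene, 14 at Slit1 and Arhgap19 (98.3 kb) and 13 at Sfrp2 (95.9 kb), a secreted Wnt modulator gene, were spread out.

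Genes also differed in how many opened regions stood in no earlier list. Snd1 had 61 such regions of 94 opened, Arid1b 29 of 70, Adk 23 of 45, Mecom 20 of 40 and Rap1gap2 20 of 52. Eif2ak3 and Rere had 19 of 34 each, Gata4 17 of 34, Nav2 17 of 29 and Aff1 16 of 30. Over all opened regions the share was 35.8%. The ranking is by count, so it favours genes with many opened regions.

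Promoters outside the lists also changed. Windows of Serpini2, a pancreatic serpin gene, Dpp4, Pigr, the polymeric immunoglobulin receptor, and Umod overlapped a peak at day 28 and none at day 7. Windows of Cldn5, the endothelial claudin, Bgn and Fmod, matrix proteoglycans, S100a4, Tbx18, Hoxd11 and Pax1 overlapped one at day 7 and none at day 28. However, none of the 7 day 28 regions linked to Dpp4 was opened, while 2 of its 8 day 7 regions closed. The 1 day 7 region linked to S100a4 was not closed. Both windows thus changed without a region linked to the gene changing in the same direction. Of the 146 genes whose promoter opened, 99 overlapped an untreated and 33 a day 1 peak there, and of the 405 whose promoter closed, 155 and 302 did. These examples were chosen after their values were seen.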
